A study of Paeonia lactiflora with 8 samples.

Results

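The miR159 family was followed across root, fruit, flower and leaf of the herbaceous peony Paeonia lactiflora Pall. Its members were all deposited sequences whose name places them in miR159, and there were 9 of them among the 270 different mature sequences listed. Of the 9 members, 7 were 21 nt long, 4 had a value above 0 in all 8 libraries and 3 had a value above 0 in 1 library only. The series asked which regulators differ between tissues that accumulate different amounts of paeoniflorin, a monoterpene glucoside of peony. The groups were root at the blossom period, fruit at the young fruit period, flower at the blossom period and leaf at the blossom period, with 2 small RNA libraries each, described as biological replicates. Tissue and stage cannot be told apart for fruit, and no genotype, cultivar or treatment was given for any group. The labels do not say whether a library came from 1 plant or from pooled plants. The p-values therefore set a difference against the spread between these libraries, taken over all tissues together. Tissue labels were not checked against defining markers, since only microRNAs were measured here. In whole tissue, fewer cells of a type and less RNA per cell cannot be told apart.

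MicroRNAs are short RNAs that guide the Argonaute protein to messenger RNAs with a matching site, and in plants the match usually extends over most of the microRNA. In Arabidopsis, miR159 represses messenger RNAs of GAMYB-like transcription factors such as MYB33 and MYB65, which act in gibberellin responses, anther development and the seed aleurone, and whose release from miR159 stunts vegetative growth. The related family miR319 arose from the same ancestral sequence and mainly represses TCP transcription factors, which act in leaf growth. These roles are background from other plants; target messenger RNAs were not measured here.

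Of the 9 members, 4 carried the 11-base run GAAGGGAGCTC, and they are shown first, because they overlap with miR319 sequences. Each sequence is written in the DNA letters of the deposited table, 5′ to 3′, with the seed (bases 2 to 8) in capitals, and the last 2 lines are miR319 entries for comparison.
ath-miR159a: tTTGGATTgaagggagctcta
zma-miR159a-3p_1ss8TG: tTTGGATGgaagggagctctg
ptc-miR159c_L-2R+2_2ss20GC21AT: tGGAGTGAagggagctcctga
mtr-miR159b_L-1_1ss21AC: tTGGAGTGaagggagctccc
ath-miR319a: tTGGACTGaagggagctccct
ath-MIR319a-p5_1ss7CG: aTTGGAGTgaagggagctccc

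A name begins with the species of the matching miRBase entry (ath for Arabidopsis, zma for maize, ptc for poplar, mtr for Medicago, vvi for grapevine, aly for Arabidopsis lyrata, cme for melon). Its suffix gives bases added or missing at the ends and substitutions. Position by position from the 5′ end of ath-miR159a, the maize-named form differed by T8G and A21G. The poplar-named form began 2 bases further in and differed over the 19 overlapping bases by T7G, T20C and A21T. The run GAAGGGAGCTC was searched as written and as its reverse complement after the sequences had been seen. It occurred as written in 7 of the 270 sequences (2.59%), which were 4 miR159 members and 3 of the 7 miR319 sequences, and in no sequence of another family. Its reverse complement occurred in 0 sequences.

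The family name did not separate miR159 from miR319 for the poplar-named and Medicago-named forms. The whole 20-nt Medicago-named form lay inside ath-MIR319a-p5_1ss7CG. The poplar-named form shared an 18-nt run with that same entry and with the Medicago-named form. It matched ath-miR319a at 17 of 20 overlapping bases. They are therefore called here by their deposited names, as assigned by the authors, and how far their reads belong to miR159 or to miR319 precursors was not tested.

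The other 5 members did not carry that run. They are shown because 3 of them overlap one another and because the last 2 consist mostly of C and T.
vvi-MIR159c-p5_1ss10CA: aGCTGCTGaattatggatccc
vvi-MIR159c-p3_1ss7CA: tGCTGAATtatggatccc
ath-MIR159b-p5_2ss10GC21GA: tTTATGGAtcccatatctcaa
aly-MIR159c-p5_1ss20CT: cTCTCTCTctctctctatata
cme-MIR159b-p3_2ss10TC18TC: cTTACCTTcccttttccctta

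The 18-nt grapevine entry named p3 lay wholly inside the 21-nt grapevine entry named p5, so their arm labels differ although their sequences overlap. The entry ath-MIR159b-p5_2ss10GC21GA shared an 11-nt run with both. In the Arabidopsis lyrata entry 18 of 21 bases were C or T, in the melon entry 19 of 21 were, and neither held a G. The 9 members had 9 different seeds, and 0 other deposited sequences had any of these seeds.

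Values are normalized read counts as the authors deposited them, and their scaling formula is not given in the sources used here. The deposited legend says that a value came from the reads of all isoforms. A value may therefore include reads other than the exact sequence printed, and shares and balances below are of these values. The summed normalized read count was 253333 and 187782 in the root libraries, 179334 and 185844 in fruit, 224292 and 536567 in flower, and 267174 and 246133 in leaf. Most low values fell on multiples of 1 step per library, or on such a multiple plus 0.5. Of the spacings tried, the coarsest that fitted nearly all low values was taken as 0.5 of a read. The step is then the value of 1 read. Read numbers and floors depend on that choice. By that step the listed sequences held between 73898 reads, in root 2, and 724509 reads, in flower 2. Library totals, and the shares of them given below, likewise cover the listed sequences only. A value of 3 reads, used as the floor, lay between 1.30 in flower 1 and 7.62 in root 2, and this floor covers counting error only. Flower 2 stood apart, since its total was 2.01 times that of the next library, against 1.08 times when ath-miR159a was left out.

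The Arabidopsis-identical form ath-miR159a, the canonical guide strand of the family, made up nearly all of the summed miR159 values in every tissue. It had normalized read counts of 51323 and 45790 in root, 71754 and 54832 in fruit, 72286 and 309733 in flower, and 56531 and 74883 in leaf. The root libraries were the lowest 2 of the 8, and flower 2 was 4.14 times the next library, while the other 7 libraries lay within 1.64-fold of one another. Mean values were 48557 ± 3912 in root, 63293 ± 11965 in fruit, 191010 ± 167900 in flower and 65707 ± 12976 in leaf (SD, n = 2 each). It was the most abundant sequence in every library but leaf 1, where it ranked second.

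As a share of the library total, ath-miR159a took 20.3% and 24.4% in root, 40.01% and 29.5% in fruit, 32.2% and 57.7% in flower, and 21.2% and 30.4% in leaf. Tissue means of the share were 22.3% ± 2.92 in root, 34.8% ± 7.43 in fruit, 44.98% ± 18.03 in flower and 25.8% ± 6.55 in leaf (SD, n = 2 each). Both root libraries held a smaller share than either fruit library and either flower library, and flower 2 held the largest share. On the deposited scale flower had the highest mean level and root the lowest, with leaf and fruit between them, and no neighbours in that order differed by the test given below.

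**Figure D1:**
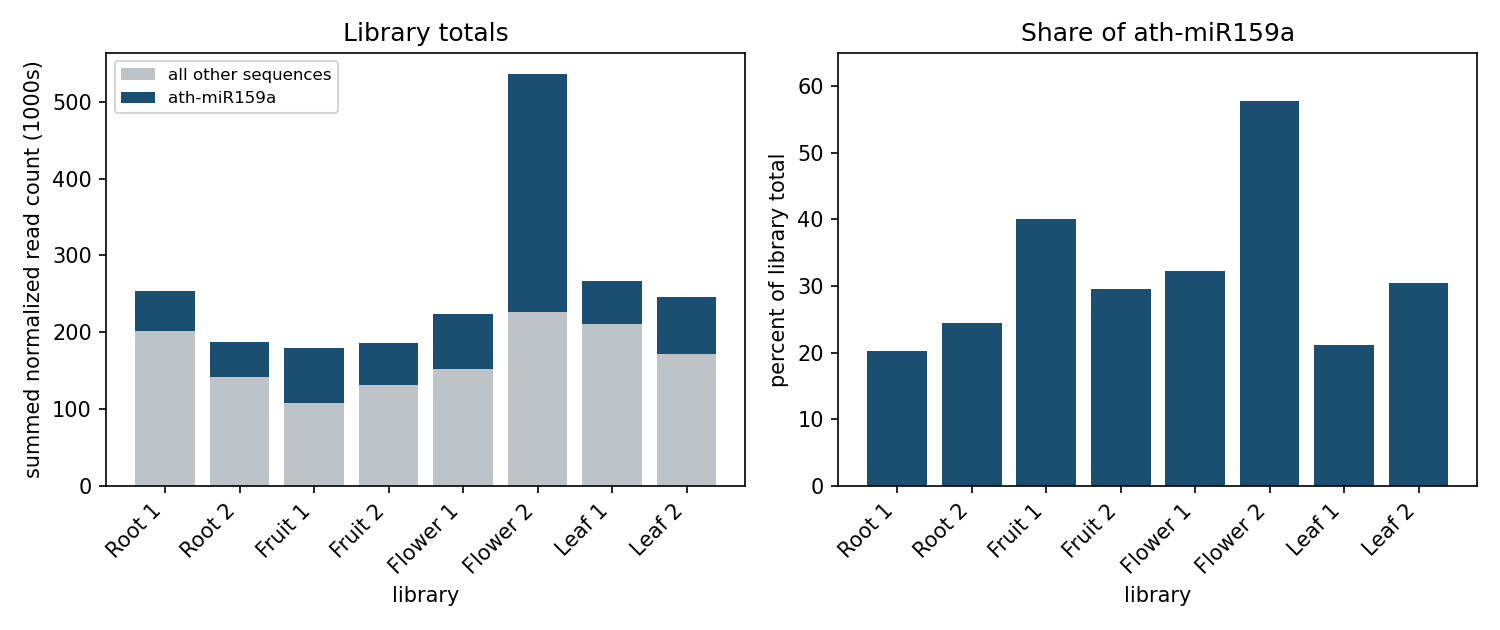
Left, stacked bars of the summed normalized read count of each library, split into ath-miR159a (dark) and all other sequences (grey); right, ath-miR159a as a percent of the library total. The part without ath-miR159a in flower 2 is 1.08 times that of the next library, while ath-miR159a itself takes 57.7% of flower 2 and 20.3% of root 1.

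The poplar-named form ptc-miR159c_L-2R+2_2ss20GC21AT, printed above beside the miR319 entries, was high in root and in flower 1. It had normalized read counts of 2844 and 2387 in root, 230 and 376 in fruit, 2049 and 783 in flower, and 163 and 328 in leaf. Both root libraries lay above all other libraries, and fruit and leaf overlapped. Means were 2616 ± 323 in root, 303 ± 103 in fruit, 1416 ± 895 in flower and 246 ± 117 in leaf (SD, n = 2 each). The 2 root libraries differed from each other 1.19-fold, while the flower libraries differed 2.62-fold. Its share of the library total was 1.12% and 1.27% in root, 0.128% and 0.202% in fruit, 0.914% and 0.146% in flower, and 0.0610% and 0.133% in leaf.

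The grapevine-named form vvi-MIR159c-p5_1ss10CA was the second most abundant member by mean value. It had normalized read counts of 317 and 2231 in root, 4386 and 3160 in fruit, 1140 and 6311 in flower, and 106 and 268 in leaf. Both leaf libraries were the lowest of the 8, the fruit libraries were both high, and in root and in flower the second library was well above the first, 7.03-fold and 5.54-fold. Means were 1274 ± 1353 in root, 3773 ± 867 in fruit, 3725 ± 3656 in flower and 187 ± 115 in leaf (SD, n = 2 each). Its levels spanned 59.6-fold from the lowest to the highest library, against 17.4-fold for the poplar-named form and 6.76-fold for ath-miR159a. It took 2.45% and 1.70% of the library total in fruit, against 0.0396% and 0.109% in leaf.

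The 20-nt Medicago-named form mtr-miR159b_L-1_1ss21AC was far rarer, at 42.0 and 8.89 in root, 15.4 and 8.30 in fruit, 71.1 and 56.7 in flower, and 5.24 and 12.6 in leaf. On the deposited scale both flower libraries were the highest of the 8, and root, fruit and leaf overlapped. As a share of the library total, flower 1 held 0.0317% and flower 2 held 0.0106%, against 0.0166% in root 1. All 8 values lay above the 3-read floor of their library.

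**Figure D2:**
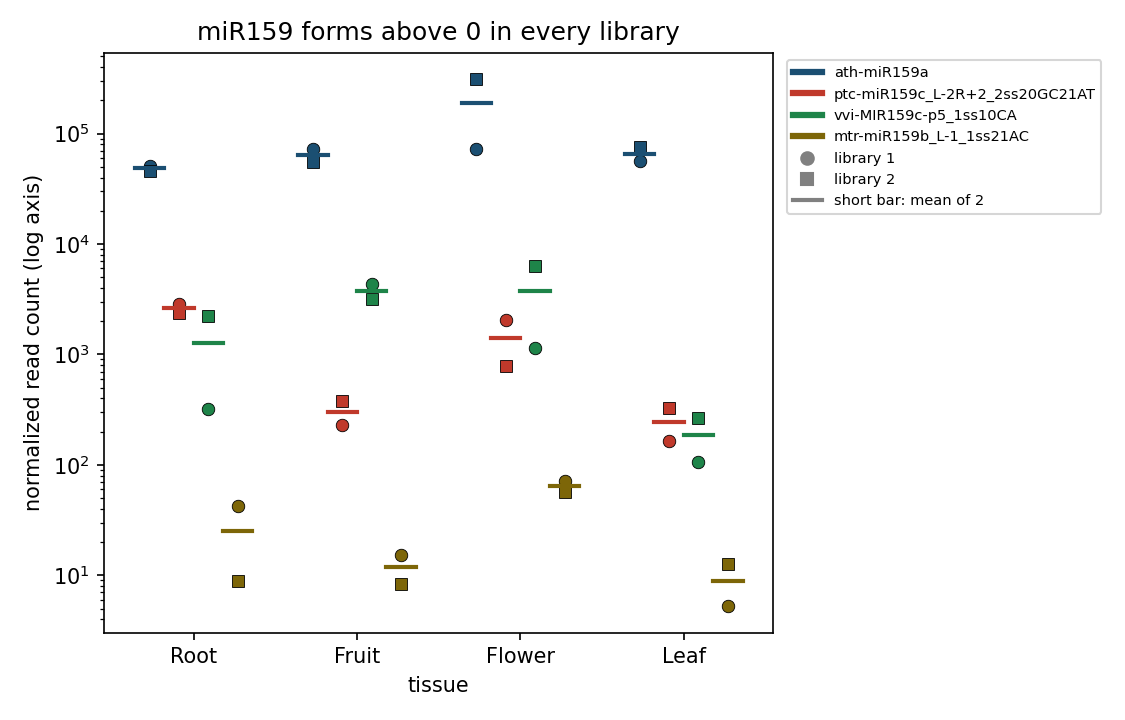
Normalized read count (log axis) of the 4 miR159 forms above 0 in every library, by tissue; circles are library 1, squares library 2 and short bars the mean of 2. The poplar-named form has both root libraries above all others, the grapevine-named form has both leaf libraries lowest, and ath-miR159a in flower 2 stands at 309733.

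The maize-named form zma-miR159a-3p_1ss8TG was listed at 0 in both root libraries, at 37.7 and 0 in fruit, at 8.86 and 16.3 in flower, and at 0 and 1.48 in leaf. The leaf 2 value lay under the 3-read floor. The short grapevine entry vvi-MIR159c-p3_1ss7CA was listed at 0 and 6.67 in flower, at 2.79 and 1.84 in fruit, and at 0 in root and leaf. Its fruit values stood for 2 reads each, under the floor.

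The remaining 3 members appeared in 1 library each. The entry ath-MIR159b-p5_2ss10GC21GA had 10.1 in fruit 2, which stood for 11 reads. The Arabidopsis lyrata entry aly-MIR159c-p5_1ss20CT and the melon entry cme-MIR159b-p3_2ss10TC18TC had 8.15 and 11.8 in flower 2, which stood for 11 and 16 reads. Flower 2 was also the library with the most reads in the listed sequences, and these 3 entries were not tested.

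Differences in level were tested with limma on log2(normalized read count + 1) over the 216 sequences that reached 1 in 2 or more libraries, of which 6 were miR159 members. Of these 6, 1 was called, at an adjusted p under 0.05, in root minus leaf and 0 in each of the other 5 pairs. Over all sequences tested, limma called 8.33% in root minus leaf, 2.78% in root minus fruit, 2.78% in root minus flower, 2.31% in fruit minus flower, 3.7% in fruit minus leaf and 2.31% in flower minus leaf. In root minus leaf 3.24% of all sequences were called higher in root. At an unadjusted p under 0.05, the number of the 6 members that passed was 1 in root minus fruit, 0 in root minus flower, 1 in root minus leaf, 1 in fruit minus flower, 1 in fruit minus leaf and 3 in flower minus leaf. The share of all sequences that passed it was 15.7% in root minus fruit, 16.2% in root minus flower, 21.8% in root minus leaf, 16.2% in fruit minus flower, 19% in fruit minus leaf and 21.3% in flower minus leaf. The median log2 difference of the 6 members ran from -1.64 in root minus flower to 2.63 in flower minus leaf. Over all sequences tested the median was 0 in both pairs. The 6 include the maize-named form and the short grapevine entry, which were at 0 in root and at 0 or under the floor in leaf.

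The member called was ptc-miR159c_L-2R+2_2ss20GC21AT, which was higher in root than in leaf by 3.49 ± 0.78 on the log2 scale (SE; limma adjusted p = 0.0441, 95% interval 1.60 to 5.38), a 10.7-fold ratio of means. The call was lost when any library but flower 1 was left out, with limma adjusted p between 0.0476 and 0.242 over the 8 fits, while the log2 difference stayed between 2.99 and 3.99. Against fruit, root was higher by 3.14 ± 0.78 on the log2 scale (limma adjusted p = 0.0947, not called), an 8.63-fold ratio of means. Against flower, root differed by 1.04 ± 0.78 (limma adjusted p = 0.512, 95% interval -0.85 to 2.93). Fruit and leaf differed by 0.35 (limma adjusted p = 0.882). The order of its mean levels was root, flower, fruit and leaf, and no neighbours in it passed the test.

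For vvi-MIR159c-p5_1ss10CA the log2 difference was 4.46 in fruit minus leaf (limma adjusted p = 0.105, 95% interval 1.44 to 7.47), a 20.2-fold ratio of means, and it was not called. In flower minus leaf it was 3.98 (limma adjusted p = 0.160), a 19.9-fold ratio of means, and it was not called. Root minus fruit gave -2.14 ± 1.25 (limma adjusted p = 0.461). Its order of mean levels was fruit, flower, root and leaf, and no neighbours in it passed the test.

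For ath-miR159a no pair was called, and the log2 differences were -0.37 in root minus fruit, -1.63 in root minus flower, -0.42 in root minus leaf, -1.25 in fruit minus flower, -0.05 in fruit minus leaf and 1.20 in flower minus leaf. The smallest limma adjusted p of these was 0.368, in root minus flower. The Medicago-named form differed most in flower minus leaf, by 2.81 (limma adjusted p = 0.218). The limma F test for any tissue difference gave an adjusted p of 0.0775 for the poplar-named form, 0.141 for the grapevine-named p5 form and between 0.374 and 0.479 for the other 4. It called 0 of the 6 members, of which 2 had an unadjusted p under 0.05, against 4.63% called and 31% with an unadjusted p under 0.05 among all sequences tested.

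**Figure D3:**
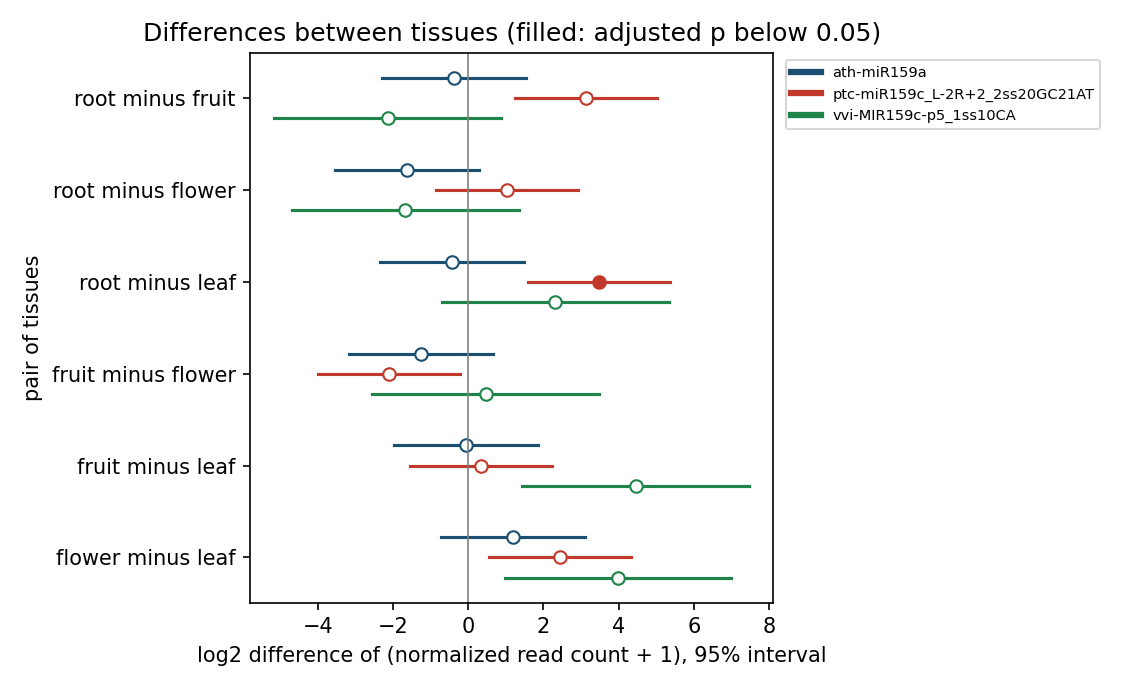
Log2 difference (first minus second tissue) of normalized read count + 1 with its 95% interval from limma, for 3 miR159 forms in the 6 pairs of tissues; filled points had an adjusted p under 0.05. The filled point is the poplar-named form in root minus leaf at 3.49, and the grapevine-named form reaches 4.46 in fruit minus leaf without being called.

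The balance of the forms compares values within 1 library. It does not depend on the scaling if that was by 1 factor per library, which was inferred from the steps of low values and is not stated. The 8 members other than ath-miR159a together made up 5.88% and 9.18% of the summed miR159 in root, 6.11% and 6.09% in fruit, 4.33% and 2.27% in flower, and 0.483% and 0.808% in leaf. Both leaf libraries were the lowest, and root, fruit and flower held the higher shares. Over all libraries ath-miR159a held 96.4% of the summed miR159, the grapevine-named p5 form 2.34% and the poplar-named form 1.20%.

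Relative to ath-miR159a in the same library, the poplar-named form stood at 5.54% and 5.21% in root, 0.321% and 0.685% in fruit, 2.83% and 0.253% in flower, and 0.288% and 0.438% in leaf. The root libraries were close together and the highest, and flower 2 was the lowest of the 8. The grapevine-named p5 form stood at 0.618% and 4.87% in root, 6.11% and 5.76% in fruit, 1.58% and 2.04% in flower, and 0.187% and 0.358% in leaf. Both fruit libraries were the highest and both leaf libraries the lowest.

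The poplar-named form divided by the grapevine-named p5 form gave 8.97 and 1.07 in root, 0.0525 and 0.119 in fruit, 1.80 and 0.124 in flower, and 1.54 and 1.22 in leaf. The poplar-named form was thus the more abundant of this pair in both root libraries and in both leaf libraries, and the less abundant in both fruit libraries. The flower libraries fell on both sides.

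**Figure D4:**
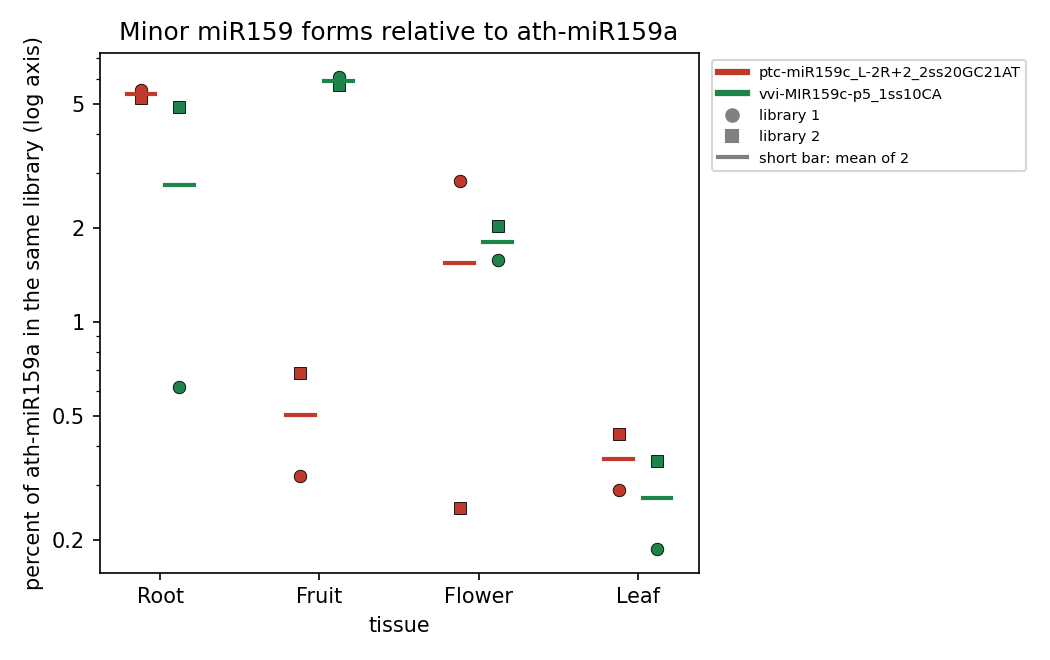
Poplar-named and grapevine-named p5 forms as a percent of ath-miR159a in the same library (log axis), by tissue; circles are library 1, squares library 2 and short bars the mean of 2. In root the poplar-named form stands at 5.54% and 5.21%, and in fruit the grapevine-named form stands at 6.11% and 5.76%.

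When log2(value + 1) was taken relative to ath-miR159a and fitted with limma over the other 215 sequences, no miR159 member was called in any pair. The poplar-named form gave 3.91 ± 1.35 in root minus leaf (limma adjusted p = 0.173) and 3.51 ± 1.35 in root minus fruit (limma adjusted p = 0.339). The grapevine-named p5 form gave 4.51 ± 1.25 in fruit minus leaf (limma adjusted p = 0.111). Over all sequences this fit called 0% in root minus leaf, fruit minus flower and flower minus leaf, 0.465% in root minus fruit, 1.86% in root minus flower and 2.79% in fruit minus leaf. Left out in turn, flower 1 changed a call for the poplar-named form, whose root minus flower difference of 2.67 (limma adjusted p = 0.301) became 4.41 (limma adjusted p = 0.0416) without it. Without root 1 the grapevine-named p5 form was called in fruit minus leaf (limma adjusted p = 0.0436), and likewise without root 2 (limma adjusted p = 0.0394).

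Not all values stood at whole reads, as taken from the step of each library. The poplar-named form stood at a whole number of reads plus 0.5 in 5 of 8 libraries, the Medicago-named form in 4 of 8 and the miR319 entry ath-MIR319a-p5_1ss7CG in 5 of 8. For ath-miR319a this held in 2 of 8. The miR319 sequence osa-miR319a-3p.2-3p_1ss14TG stood at whole reads in 0 of 8. Values of ath-miR159a and of the grapevine-named p5 form were whole reads in 8 of 8 libraries, within 0.01 of a read. The size of a remainder does not give the uncertainty of a level. How far the levels of the poplar-named form, the Medicago-named form and the miR319 entries just named are uncertain is therefore unknown. Whether reads were divided between near-identical entries was not tested.

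The most abundant miR319 sequence, ath-miR319a, had 9049 and 2445 in root, 181 and 3327 in fruit, 1668 and 1004 in flower, and 134 and 110 in leaf. Both leaf libraries were the lowest, and the fruit libraries differed widely. Among 66 sequences outside the family with a mean of at least 100, it was the second most like the poplar-named form over the 8 libraries, with a Pearson r of 0.802 on log2(value + 1). The others were lja-miR171c, with r = 0.807, and peu-miR2916_R-1_2ss6AG21TG, with r = 0.795. With the closer sequences named above, the r of the poplar-named form was 0.460 for ath-MIR319a-p5_1ss7CG and 0.600 for the Medicago-named form. The points share libraries and depth, so these values are descriptions.

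For ath-miR159a the most like sequences were csi-miR1515 with r = 0.923, aly-miR171c-5p_1ss11GC with r = 0.737 and smo-MIR1097-p5_2ss4GT19GC with r = 0.685. Without flower 2, an alternative chosen after seeing the data, these became 0.287, 0.532 and 0.629. The values of csi-miR1515 were 68.3 and 28.0 in root, 33.5 and 66.4 in fruit, 83.4 and 1121 in flower, and 26.2 and 52.7 in leaf, so flower 2 stood apart there as well. The r between ath-miR159a and the poplar-named form was -0.08.

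The families with MYB targets or shared ancestry (miR159, miR319, miR828 and miR858) had 21 sequences, of which 16 were tested. limma called 2 of the 16 higher in root than in leaf, 1 lower in fruit than in flower and 1 higher in fruit than in leaf, and 0 in the other 3 pairs. Of all sequences, 3.24%, 2.31% and 0.463% were called in those directions. In root minus leaf they were the poplar-named form and osa-miR319a-3p.2-3p_1ss14TG, a miR319 sequence that had 196 and 114 in root, 261 and 163 in fruit, 24.6 and 58.1 in flower, and 9.04 and 6.996 in leaf. The log2 difference was 4.07 ± 0.87 in root minus leaf (limma adjusted p = 0.0411). It was called in 8 of 20 alternatives, and the call was lost without fruit 1, fruit 2, flower 2, leaf 1 or leaf 2 (limma adjusted p between 0.0388 and 0.239 over the 8 fits with 1 library left out). This miR319 sequence was also the one higher in fruit than in leaf, by 4.53 ± 0.87 (limma adjusted p = 0.0437). That call stood in 11 of 20 alternatives and was lost when any fruit, flower or leaf library was left out (limma adjusted p between 0.0173 and 0.284 over the 8 fits). As given above, its values were not whole reads. The sequence ath-miR858b, whose family represses flavonoid MYB factors in Arabidopsis, had 308 and 267 in fruit, against 3138 and 4664 in flower, a log2 difference of -3.73 ± 0.65 (limma adjusted p = 0.0462). It was called in 6 of 20 alternatives and lost when any fruit, flower or leaf library was left out (limma adjusted p between 0.0245 and 0.324 over the 8 fits). The median log2 difference of the 16 ran from -1.13 in root minus flower to 1.91 in flower minus leaf.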

How the data were processed

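The deposited table held normalized read counts, treated as a signal, for 8 small RNA libraries. Per the labels' protocols, the authors prepared TruSeq libraries from total RNA and ran ACGT101-miR, which discarded adapter dimers, reads of low complexity, common RNA families and repeats. The legend deposited with the table says that mapping was to miRBase hairpins and that a value came from the reads of all isoforms. Not given in the sources used here are the normalization formula, program versions and genome build. All 8 value columns matched a library label. Since values were not raw counts, no count model was used.

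The 304 entries were reduced to 270 by keeping identical sequences once, under the first name. Log2(value + 1) was fitted with limma 3.58.1 in R 4.3.3 (mean-variance trend, tissue as the only term, all 8 libraries, 4 residual and 2.43 prior degrees of freedom) over 216 sequences, and 54 were not tested. Calls had a Benjamini-Hochberg adjusted p under 0.05 over all sequences tested. The ratio fit subtracted log2(value + 1) of ath-miR159a. Folds are ratios of mean values, and log2(value + 1) understates changes of low values. The fit of levels was run on simulated data and read for root minus leaf only. The ratio fit, the F test and the other pairs were not simulated. Between 71.6% and 80.6% of values above 0 and below 2000 steps were whole steps within 0.01. Among values below 2000 of the finer spacings of 0.5 step, between 93% and 98.7% were whole steps or whole steps plus 0.5.

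The members and lists were chosen with earlier results of these data known. Named were all miR159 sequences, the 3 most like sequences of each main form, the most abundant miR319 sequence and any called MYB-list sequence. A list of animal names held 0 sequences. Alternatives were another pseudocount, filter, scaling or model, and leaving out each library.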

Additional observations from a re-analysis of the deposited data

How the results depend on the processing

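Root minus leaf of the poplar-named form kept its direction under all 20 alternatives, and limma called it in 5 (pseudocount 0.5, minimum value 10, median-ratio scaling, every entry separate, without flower 1). It was not called with pseudocount 10 (3.44, adjusted p = 0.0584), no filter (3.49, adjusted p = 0.0707), equal totals (3.72, adjusted p = 0.083), quantile normalization (3.77, adjusted p = 0.0651), no trend (3.49, adjusted p = 0.0579), library weights (3.49, adjusted p = 0.116) or these 2 tissues only (3.49, adjusted p = 0.0803). With the replicate number as a block it was 3.49 (adjusted p = 0.0771). Correlations of same-numbered deviations ran from -0.197 to 0.238, the highest for root with leaf. They cannot decide whether equal numbers pair the libraries. With 1 library left out, root minus leaf of the poplar-named form ran from 2.99 to 3.99, and there a lone library is assumed to vary like the other tissues. In the grapevine-named p5 form, fruit minus leaf was called with library weights (4.46, adjusted p = 0.0138; ratio fit 4.51, adjusted p = 0.00623) and in these 2 tissues only (4.46, adjusted p = 0.0435; ratio fit 4.51, adjusted p = 0.02), and its F test with weights (F = 11.5, adjusted p = 0.0386). With 1 library left out the ratio fit gave 4.05 to 4.97, and root minus flower of the poplar-named form gave 0.92 to 4.41.

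The differences below changed direction, and none of them was called in the fit reported. For ath-miR159a these were root minus leaf with quantile normalization (0.44) and fruit minus leaf with equal totals (0.44), quantile normalization (0.44) and median-ratio scaling (0.089). Quantile normalization sets the top sequence of each library equal by construction. For the short grapevine entry, fruit minus flower was -0.069 with pseudocount 10. With 1 library left out, fruit minus leaf ran from -0.26 to 0.15 for ath-miR159a, from -0.16 to 0.85 for the poplar-named form, from -0.14 to 0.98 for the Medicago-named form and from -0.66 to 4.62 for the maize-named form (1.98 as reported). Fruit minus flower ran from -3.71 to 1.57 for the maize-named form (-1.07 as reported), from -0.76 to 1.71 for the grapevine-named p5 form and from -1.22 to 1.72 for the short grapevine entry, and root minus fruit from -0.32 to 1.80 for the Medicago-named form. In the ratio fit, root minus flower of the grapevine-named p5 form ran from -1.53 to 1.44, and for the poplar-named form fruit minus flower ran from -2.59 to 0.90, flower minus leaf from -0.50 to 2.99 (1.25 as reported) and fruit minus leaf from -0.15 to 0.94. Why these values moved was not tested.

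The mean share of the poplar-named form in root was 1.33% with 18-nt and 19-nt sequences left out of the total. With equal totals the summed miR159 was 62899 in root, 96266 in fruit and 120604 in flower, against 52472, 67407 and 196241 as deposited. Equal totals moved the median over all sequences to 0.42 in root minus flower, to 0.05 in fruit minus flower and to -0.10 in flower minus leaf, against 0, -0.39 and 0 as deposited. The number of sequences called ran from 0 to 29 in root minus fruit, 0 to 24 in root minus flower, 0 to 44 in root minus leaf, 0 to 18 in fruit minus flower, 0 to 44 in fruit minus leaf and 0 to 21 in flower minus leaf. Over the 20 alternatives, which were applied to them after seeing the data, ath-miR858b in fruit minus flower ran from -4.02 to -2.81, and osa-miR319a-3p.2-3p_1ss14TG ran from 3.15 to 4.46 in root minus leaf and from 3.59 to 5.05 in fruit minus leaf. The short grapevine entry gave no value with a minimum of 10. With 2 libraries per tissue and floors up to 7.62, small differences were not detectable, and large ones could also go uncalled. The grapevine-named p5 form in fruit minus leaf was not called at a 20.2-fold ratio of means (limma adjusted p = 0.105). A pair that was not called is therefore not shown to be equal.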
